A study of Mus musculus with 2 samples.

Results

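Ccr7, Ccr9, Cxcr4 and Ccr4 encode the chemokine receptors best known for moving developing T cells through the thymus, and these 4 genes were followed in single thymocytes among the 20282 genes of the deposited matrix. They were chosen by name, and each was described by its UMIs (unique molecular identifiers, which count RNA molecules) per 1000000 UMIs, written CPM, and by the share of cells with at least 1 UMI of it. Both values were taken in each cluster that the authors deposited and in each of the 2 libraries. Each library pooled the thymus cells of 5 littermate mice aged 6 weeks, which were Cdc42f/f for WT and Cdc42f/f CD4Cre for KO. Both genotypes carry floxed Cdc42 alleles, and Cre under the CD4 promoter acts in the KO from the double-positive (DP) stage on, in cells that later become either CD4 or CD8 T cells. Cdc42 is thus removed only in the T lineage and only from that stage. With 1 library per condition there was no replicate and no test between WT and KO, and the intervals given here are exact 95% intervals that cover counting error only, as does the limit of 3 counts used where a count was 0.

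Chemokine receptors are G protein-coupled receptors, which signal through inhibitory G proteins and make a cell crawl toward the source of their ligand. In the thymus, CXCR4 and its ligand CXCL12 hold immature cells in the cortex, and CCR9 responds to CCL25, which thymic epithelial cells make. After positive selection, in which DP cells whose T cell receptor binds self-peptide and MHC are kept and become single-positive (SP), CCR4 and CCR7 draw the cells into the medulla, CCR4 through CCL17 and CCL22 from dendritic cells and CCR7 through CCL19 and CCL21.

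The WT-labelled library held 6115 cells with a median of 3192 UMIs per cell, and the KO-labelled library held 7568 cells with a median of 3401. The 2 libraries shared 17 cell barcodes, and all cells were kept. 4 stages were built from the deposited clusters by a marker each. The clusters with the most Rag1 (DP cells rearranging the T cell receptor, clusters 0 to 4) held 3636 WT and 4641 KO cells. The clusters with the most Cd5 (DP cells that have received a T cell receptor signal, clusters 5 and 9) held 535 and 843 cells. The cluster with the most Itm2a (early SP, cluster 6) held 479 and 316 cells, and the cluster with the most Ms4a4b (mature SP, cluster 7) held 332 and 396 cells. Of the other stage markers, Egr1, Nr4a1, Cd69 and Tox were highest in the Cd5 clusters, Cd40lg was highest in the Itm2a cluster, and S1pr1, Klf2 and Ms4a6b were highest in the Ms4a4b cluster. Cdc42 itself was at 358 CPM in WT and 320 CPM in KO at the Rag1 stage, and at 447 and 581 CPM at the Ms4a4b stage. These counts of 3′ ends do not check the labels, since a transcript without the deleted exon is still counted, so WT and KO below mean the libraries as labelled. The cell names in the deposited matrix carry Cdc45 with WT or KO, where the sample titles carry Cdc42, and cells were assigned by the WT and KO of these names.

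The 4 genes lie on 3 chromosomes of GRCm38 (mm10), the build that the submitters' processing notes name. Ccr7 (ENSMUSG00000037944.8) spans chromosome 11 from 99144196 to 99155077 on the minus strand with 3 exons. Cxcr4 (ENSMUSG00000045382.6) spans chromosome 1 from 128588199 to 128592293 on the minus strand. Ccr4 (ENSMUSG00000047898.7) and Ccr9 (ENSMUSG00000029530.16) both lie on chromosome 9, from 114490316 to 114504916 on the minus strand and from 123678439 to 123784330 on the plus strand. No other GENCODE vM21 gene overlaps Ccr7, Cxcr4 or Ccr4, whereas the long span of Ccr9 overlaps Slc6a20a and Lztfl1 on the other strand and a noncoding gene, Gm17200, on its own strand. Whether the counting used strand is not given in the sources used here, so a part of the Ccr9 count from these neighbours cannot be told apart.

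The bases before the start of a gene are where its transcription factors often bind, and they are shown for the 3 receptors found in the RefSeq promoter table (GRCm38.p6), because Ccr9 and Ccr4 were the members called higher in KO at the Itm2a stage and Cxcr4 was not. Each stretch is the 250 bases before the start that RefSeq gives, 5′ to 3′ on the strand of the gene. For Ccr9 and Ccr4 that start lies inside the gene spans above, which begin farther upstream, and the bases right after it occur within a GENCODE transcript. For Cxcr4 those bases were not found whole in a GENCODE transcript. Whether a GENCODE transcript begins exactly at these starts was not checked. Capitals mark matches, on either strand, to the E-box CAGGTG, the RUNX motif TGTGGT, the TCF1/LEF1 motif CTTTGAT, the TATA box TATAAA or the GC box GGGCGG.
Ccr9, chr9:123766961-123767210: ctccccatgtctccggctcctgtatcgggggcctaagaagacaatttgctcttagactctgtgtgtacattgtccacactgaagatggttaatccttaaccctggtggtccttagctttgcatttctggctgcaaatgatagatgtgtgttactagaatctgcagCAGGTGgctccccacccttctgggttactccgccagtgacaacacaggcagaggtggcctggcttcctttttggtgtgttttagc
Ccr4, chr9:114496545-114496794: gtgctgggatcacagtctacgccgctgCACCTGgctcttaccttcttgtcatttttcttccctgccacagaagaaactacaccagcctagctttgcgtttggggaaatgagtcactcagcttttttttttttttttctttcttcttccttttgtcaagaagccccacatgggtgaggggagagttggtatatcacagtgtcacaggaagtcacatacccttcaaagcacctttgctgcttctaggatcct
Cxcr4, chr1:128592300-128592549: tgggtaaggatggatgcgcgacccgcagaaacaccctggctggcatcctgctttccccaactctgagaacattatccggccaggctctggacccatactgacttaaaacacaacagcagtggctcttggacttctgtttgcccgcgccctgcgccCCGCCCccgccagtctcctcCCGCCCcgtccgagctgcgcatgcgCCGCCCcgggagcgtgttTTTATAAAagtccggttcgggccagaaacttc
The E-box letters stood 85 bases before the start of Ccr9 and 223 bases before the start of Ccr4, and they were absent from the window of Cxcr4. Across all 32851 promoters of the table, 17.2% of windows of this length held them. The Cxcr4 window had 3 GC boxes and a TATA box on both strands in overlapping letters 30 to 32 bases before the start, against 32.7% and 12.4% of all windows with a match. The RUNX and TCF1/LEF1 letters, in 14% and 3.21% of all windows, were in none of the 3. These matches describe letters and not bound sites, and any link between them and the KO calls was not tested. Ccr7 was not in the table and is named only.

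Ccr9 was high in DP cells and in a part of the early SP cells, and of the 4 stages it was highest at the Cd5 stage. In WT it was at 1311 CPM at the Rag1 stage (interval 1289 to 1332), 1874 CPM at the Cd5 stage (1813 to 1936), 856 CPM at the Itm2a stage (823 to 889) and 241 CPM at the Ms4a4b stage (221 to 262). In KO these levels were 1503, 1854, 1384 and 333 CPM. Both libraries had the peak in the 2 Cd5 clusters, whose intervals overlapped each other and were above those of every other cluster. The earlier thymocytes had much less. The proliferating clusters 10, 11 and 12, which hold high Top2a and Mki67, were between 82.9 and 377 CPM, and cluster 14, which holds the double-negative (DN) markers Il2ra, Ptcra, Notch1 and Hes1 at their highest and also the most Trgc1 and Trgc2, was at 279 CPM in WT and 408 CPM in KO. Cluster 13, which is proliferating but still rich in Rag1 and Cd8b1, was at 1065 and 1207 CPM. Depth differed, with medians from 12526 to 22445 UMIs in clusters 10, 11 and 12 against 2823 and 3097 at the Rag1 stage. Per cell with a Ccr9 UMI, WT had 5.26, 4.06 and 3.25 of them in clusters 10, 11 and 12, against 4.25 at the Rag1 stage. KO had 6.50, 5.81 and 4.13, against 5.19.

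Cxcr4 was shared by the dividing and DP cells and was low in SP cells. In WT it was at 170 CPM at the Rag1 stage (162 to 178), 140 CPM at the Cd5 stage (124 to 158), 20.3 CPM at the Itm2a stage (15.6 to 26.0) and 16.7 CPM at the Ms4a4b stage (11.9 to 22.9). In KO it was at 160, 140, 23.9 and 29.6 CPM. The step down lay between the Cd5 and the Itm2a stage in both libraries, and no interval of a Cd5 cluster reached one of cluster 6 or 7, although over all clusters each interval overlapped that of the next in order. The DN-marked cluster 14 was at 92.4 and 109 CPM and the 4 proliferating clusters were between 70.1 and 146 CPM, so Cxcr4 was present before the Rag1 stage as well. Within the Rag1 stage, clusters 0 and 2 of WT (207 and 200 CPM) were above clusters 3 and 4 (138 and 123 CPM) with intervals apart, while in KO the range was smaller, from 129 to 179 CPM.

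Ccr4 marked the signalled cells. In WT it was at 2.76 CPM at the Rag1 stage (1.86 to 3.94), 82.7 CPM at the Cd5 stage (70.3 to 96.7), 36.0 CPM at the Itm2a stage (29.6 to 43.4) and 3.44 CPM at the Ms4a4b stage (1.48 to 6.77, from 8 UMIs). In KO it was at 4.36, 70.8, 88.8 and 12.4 CPM. In WT the Itm2a cluster was thus below both Cd5 clusters (80.1 and 88.3 CPM) with intervals apart, whereas in KO it was the highest of the 3 and their intervals overlapped. Before the Cd5 stage the gene was close to absent. Cluster 10 had 1 UMI of it in 232 WT cells and 0 in 231 KO cells, although those cells had medians of 12526 and 14361 UMIs, and a count of 0 allows 0.820 CPM when 3 counts are taken as the limit (1.01 CPM by the exact interval).

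Ccr7 appeared last. In WT it was at 4.51 CPM at the Rag1 stage (3.34 to 5.96), 11.5 CPM at the Cd5 stage (7.22 to 17.4), 179 CPM at the Itm2a stage (164 to 194) and 252 CPM at the Ms4a4b stage (232 to 273). In KO it was at 5.53, 7.89, 122 and 197 CPM. The jump came with the Itm2a stage, 1 step after that of Ccr4, and in both libraries the Ms4a4b cluster was above the Itm2a cluster with intervals apart. Outside these stages Ccr7 was high in cluster 18, a small group of 24 WT and 8 KO cells with high Ms4a4b and high Top2a (248 and 220 CPM), whose interval overlapped that of the Ms4a4b cluster. Cluster 15, which held the highest levels of the B cell markers Cd79a, Cd79b, Ms4a1 and Igkc and of the dendritic marker Siglech, had 218 CPM in 63 WT cells and 85.1 CPM in 87 KO cells. Its median depth was 1202 UMIs in WT and 4284 in KO, and the part of that gap in the Ccr7 difference was not tested.

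**Figure D1:**
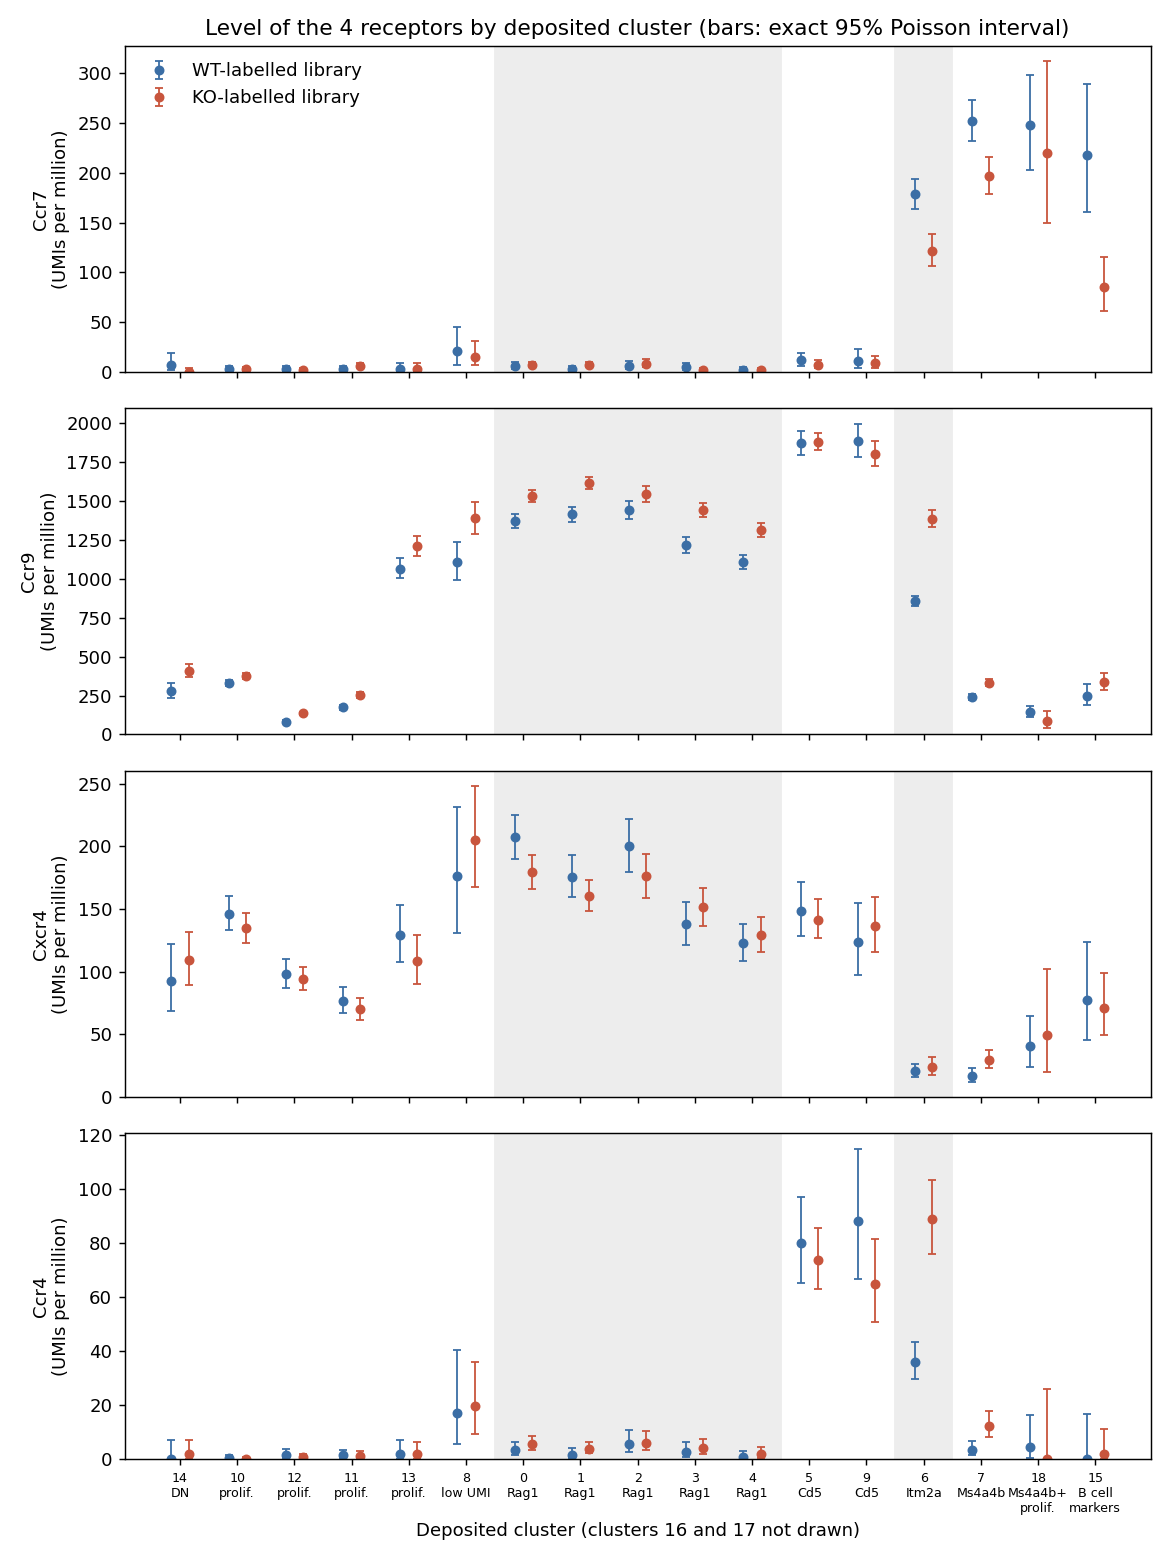
Levels of Ccr7, Ccr9, Cxcr4 and Ccr4 in CPM on linear axes, by deposited cluster from DN-marked and proliferating cells on the left to SP cells and cluster 15 on the right, for the WT-labelled (blue) and KO-labelled (red) library, with exact 95% Poisson intervals. Ccr9 peaks in the Cd5 clusters, Cxcr4 drops at the Itm2a cluster, Ccr4 is high in the Cd5 and Itm2a clusters, and Ccr7 is high from the Itm2a cluster on.

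The share of cells with a UMI was read next. At the Rag1 stage 92.1% of WT and 95.8% of KO cells had a Ccr9 UMI, against 3.33% of the 30 WT and 8.16% of the 49 KO cells of cluster 16, which holds the macrophage markers at their highest and should lack the gene (median depths of 875 and 695 UMIs there). When every cell was thinned to 1000 UMIs, which left out 37 WT and 10 KO cells of the Rag1 stage, the Ccr9 shares became 68.5% and 73.3%. Ccr7 was found in 53.4% of WT and 34.5% of KO cells at the Itm2a stage and in 71.7% and 58.1% at the Ms4a4b stage. In the proliferating clusters 10, 11 and 12, which are earlier and deeper (medians from 12526 to 22445 UMIs), the shares ranged from 3.45% to 3.95% in WT and from 2.16% to 7.45% in KO. After thinning, which left out 1 cell at each of these stages, the Ccr7 shares were 15.7% and 7.94% at the Itm2a stage and 22.4% and 19.4% at the Ms4a4b stage. The Itm2a-stage intervals stayed apart, and those of the Ms4a4b stage overlapped, with unthinned median depths of 6738 UMIs in WT and 5032 in KO. Ccr4 was found in 20% of WT and 21.0% of KO cells at the Cd5 stage and in 16.1% and 33.2% at the Itm2a stage. Thinned, these shares were 7.71%, 6.21%, 3.55% and 8.25%. Cxcr4 was found in 39.2% of WT and 39.9% of KO cells at the Rag1 stage (16.5% and 15.1% when thinned) and in 8.73% and 12.4% at the Ms4a4b stage, where thinning left 8 UMIs in each library, too few to order them.

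Next, KO was compared with WT within each stage. A gene was called where its log2 ratio of CPM, with 0.5 added to both sums, was 0.5 or more from 0, among genes with at least 20 UMIs in the stage, and all 4 receptors had that many at every stage. In SP cells most genes had ratios above 0, with medians over all genes tested of 0.16 at the Itm2a stage and 0.24 at the Ms4a4b stage (0.05 and 0.04 at the Rag1 and Cd5 stages), so receptor ratios there are also given with that median subtracted.

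At the Rag1 stage 1 receptor was called higher in KO, beside 7.44% of all genes, and 0 were called lower, beside 3.08%. The call was Ccr4, from 30 UMIs in WT and 67 in KO, a log2 ratio of 0.65 (0.02 to 1.33), at a level below 5 CPM in both. Ccr9 was higher in KO by 0.20 (0.17 to 0.23), and this smaller step was seen in each of the 5 Rag1 clusters, with ratios from 0.10 to 0.25 and intervals above 0. Cxcr4 was at −0.08 (−0.17 to 0.01) and Ccr7 at 0.29 (−0.23 to 0.83). Outside the stages Ccr9 was also higher in KO in the DN-marked cluster 14, at 0.54 (0.27 to 0.83). In the proliferating clusters 10, 11, 12 and 13 its ratios were 0.18, 0.54, 0.71 and 0.18, all with intervals above 0. In clusters 15 and 18 its intervals held 0.

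At the Cd5 stage 0 receptors were called higher, beside 9.38% of all genes, and 1 was called lower, beside 4.88%. That was Ccr7 at −0.55, which rested on 22 UMIs in WT and 27 in KO and whose interval of −1.41 to 0.34 held 0. The receptors that are abundant at this stage had close levels in both libraries. Ccr9 was at −0.016 (−0.08 to 0.04), Cxcr4 at −0.0075 (−0.23 to 0.21) and Ccr4 at −0.23 (−0.52 to 0.07).

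At the Itm2a stage 2 receptors were called higher, beside 15.8% of all genes, and 1 was called lower, beside 6.68%. Ccr9, already high at the preceding stages, had 2611 UMIs in WT and 2604 in KO, which in the smaller KO total made a log2 ratio of 0.69 (0.61 to 0.77). Ccr4, already high at the Cd5 stage, had 110 and 167 UMIs and a ratio of 1.30 (0.94 to 1.66), above 99.0% of all genes. Ccr7, the receptor that comes on at this stage, had 545 and 229 UMIs and a ratio of −0.55 (−0.78 to −0.33), which placed it above 5.65% of all genes. With the median subtracted, these were 0.54, 1.14 and −0.71. Cxcr4 had 62 and 45 UMIs and a ratio of 0.24 (−0.35 to 0.81).

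At the Ms4a4b stage 2 receptors were called higher, beside 27.0% of all genes, and 0 were called lower, beside 7.03%. Ccr4 had 8 UMIs in WT and 28 in KO, a ratio of 1.78 (0.68 to 3.19) that became 0.59, from 2 and 4 UMIs, when cells were thinned to 1000 UMIs. Cxcr4 had 39 and 67 UMIs, a ratio of 0.81 (0.23 to 1.43) that turned to −0.26 with the same thinning. Ccr9 was short of the call at 0.47 (0.31 to 0.63), and with the median subtracted it was at 0.23. Ccr7 was also short of it at −0.36 (−0.54 to −0.18), and at −0.60 with the median subtracted. The scaling decided how many genes were called. With TMM factors 46.3% of the genes called at this stage were higher in KO, against 79.4% with library totals, at the Itm2a stage 42.3% against 70.3%, and at the Rag1 stage 60.7% with DESeq2 size factors against 70.7%. Ccr7 at this stage was −0.62 with TMM factors, past the call, and Ccr9 was 0.21.

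**Figure D2:**
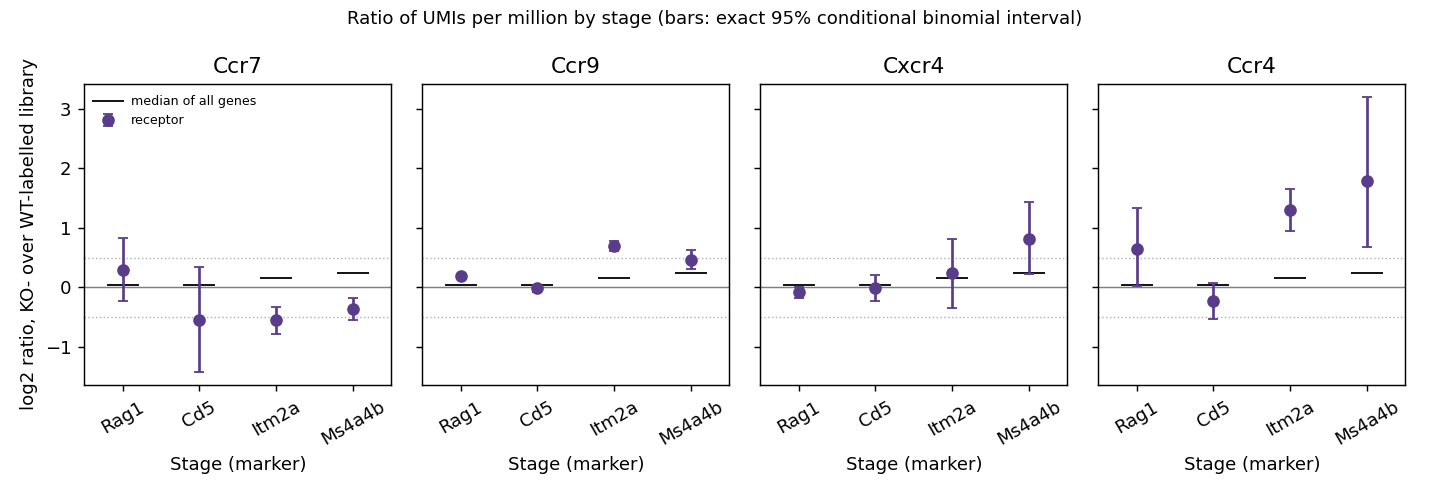
KO over WT on a log2 scale for each receptor at the 4 stages, with exact 95% conditional binomial intervals, dotted lines at the call of 0.5 in both directions and black bars at the median ratio of all genes of the stage. Ccr7 is below the black bar at the Itm2a and Ms4a4b stages, where Ccr9 and Ccr4 are above it.

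The Itm2a cluster was not uniform, and the receptors divided it. At resolution 1.8 of the deposited clusters it fell mainly into a part with high Itm2a (2523 CPM in WT, 2294 in KO) and little Ms4a4b (59.8 and 48.8 CPM), and a part with lower Itm2a (1315 and 1906 CPM) and more Ms4a4b (428 and 249 CPM). This division was looked at after the ratios above had been seen. The Itm2a-high part held 142 of the WT cells (29.6%, interval 25.6% to 34.0%) and 160 of the KO cells (50.6%, 45.0% to 56.3%). The Itm2a-lower part held 316 WT cells (66.0%) and 132 KO cells (41.8%), and a small group of 19 WT and 21 KO cells had less Ccr9 than either (125 and 435 CPM).

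In the Itm2a-high part Ccr9 was at 1683 CPM in WT and 1793 CPM in KO, a log2 ratio of 0.09 (−0.02 to 0.20), and Ccr7 was at 93.8 and 86.5 CPM, a ratio of −0.12 (−0.60 to 0.37). Both intervals held 0. Ccr4 was at 57.1 and 102 CPM, a ratio of 0.83 (0.30 to 1.40), so it was still called higher. In the Itm2a-lower part Ccr9 was at 620 and 1062 CPM (0.78, 0.65 to 0.90), Ccr4 at 29.8 and 82.3 CPM (1.47, 0.96 to 1.98) and Ccr7 at 216 and 170 CPM (−0.34, −0.62 to −0.07). In that part Itm2a itself was higher in KO by 0.54 and Ms4a4b was lower by a log2 ratio of −0.78. The part of these marker differences in the receptor ratios was not tested. With the Itm2a-high cluster of resolution 1.8 taken as the whole stage, the ratios of Ccr9 and Ccr7 were 0.07 and −0.14, neither called, and that of Ccr4 was 0.71.

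Within the Itm2a cluster of WT, the 256 cells with a Ccr7 UMI had less Ccr9 (663 against 1127 CPM), less Ccr4 (23.5 against 53.6 CPM) and less Cd69 (172 against 312 CPM) than the 223 cells without one. They had more Klf2 (224 against 63.9 CPM) and more S1pr1, the receptor for egress from the thymus (29.1 against 4.73 CPM). In KO the 109 cells with a Ccr7 UMI had 1176 CPM of Ccr9 against 1513 CPM in the other 207 cells, 80.4 against 93.96 CPM of Ccr4 and 420 against 153 CPM of Klf2. The Ccr4 intervals of the 2 kinds of cell overlapped in KO and not in WT. The cells with a Ccr7 UMI were also deeper, with median depths of 6236 against 5063 UMIs in WT and 5852 against 5128 in KO, and the part of depth in these differences was not tested.

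**Figure D3:**
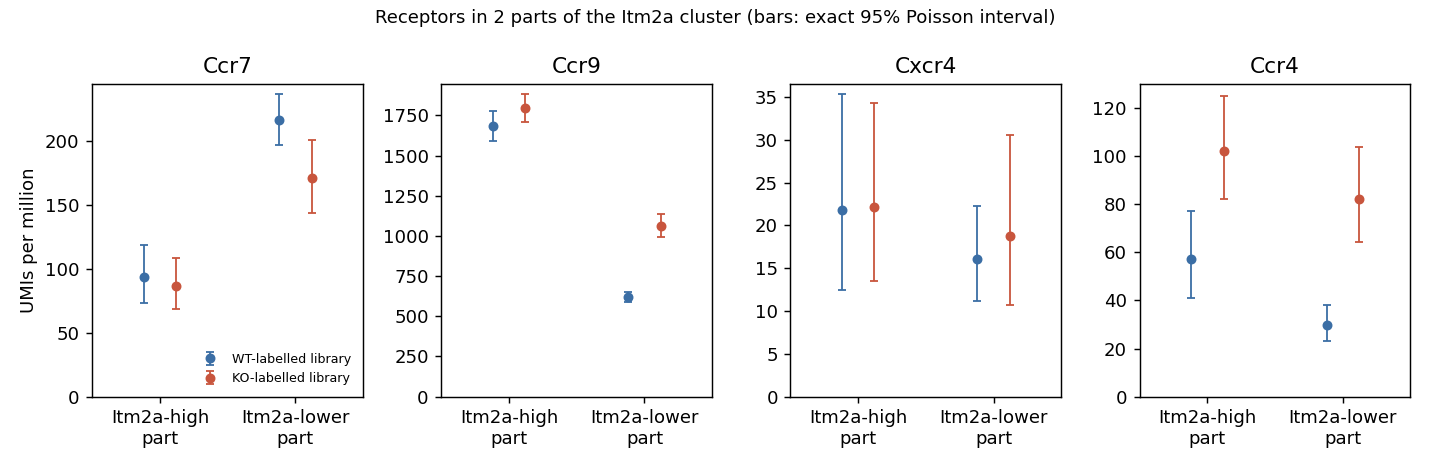
Levels of the 4 receptors in CPM on linear axes in the Itm2a-high and the Itm2a-lower part of the Itm2a cluster, for the WT-labelled (blue) and KO-labelled (red) library, with exact 95% Poisson intervals. The Ccr9 intervals of the 2 libraries overlap in the Itm2a-high part and are apart in the Itm2a-lower part, and those of Ccr4 are apart in both.

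SP cells were then sorted by their coreceptor UMIs, since CD4 and CD8 cells are known to differ in chemokine receptors. At the Ms4a4b stage the CPM of Ccr9 was lowest in cells with Cd4 UMIs only. Cells with Cd8a or Cd8b1 UMIs only had 320 CPM in WT (106 cells) and 359 CPM in KO (97 cells), and cells with Cd4 UMIs only had 80.3 CPM (76 cells) and 84.6 CPM (90 cells). Cells with neither had 267 CPM in WT (79 cells) and 271 CPM in KO (91 cells). A Ccr9 UMI was found in 22.8% and 18.7% of the cells with neither, against 32.9% and 24.4% of Cd4-only cells. The log2 ratio of Cd4-only over Cd8-only cells was −1.98 in WT (−2.51 to −1.51) and −2.07 in KO (−2.63 to −1.57), close to each other. The KO over WT ratios of CPM were small in these 2 classes, at 0.08 in Cd4-only cells (−0.61 to 0.76) and 0.16 in Cd8-only cells (−0.11 to 0.44). The share of Cd8-only cells with a Ccr9 UMI was lower in KO, at 42.3% (32.3% to 52.7%) against 63.2% in WT (53.3% to 72.4%). Their median depth was also lower in KO, at 4737 against 7182.5 UMIs, and its part in the shares was not tested. A single KO cell held 44 of the 194 Ccr9 UMIs of this class. In cells with UMIs of both coreceptors the CPM of Ccr9 was higher in KO, at 495 CPM in 118 cells against 245 CPM in 71 WT cells, a ratio of 1.01 (0.72 to 1.31). Cxcr4 followed the same line, with 43 UMIs (55.5 CPM) in these KO cells and 9 UMIs (17.1 CPM) in the WT cells, a ratio of 1.64 (0.64 to 2.92), and so did Ccr4, with 16 UMIs against 1. Over this whole stage the DP marker Rag1 was also higher in KO, at 184 CPM against 88.9 CPM in WT. It was found in 20.2% of KO and 12.3% of WT cells. The part of this difference in the receptor ratios was not tested.

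Ccr7 at the Ms4a4b stage was close in Cd4-only cells of WT and KO, at 245 and 254 CPM (0.05, −0.33 to 0.43). In Cd8-only cells it was at 276 CPM in WT and 176 CPM in KO, a ratio of −0.65 (−1.01 to −0.30). In cells with both it was at 279 and 200 CPM (−0.48, −0.82 to −0.15). Whether the ratios of Cd4-only and Cd8-only cells differ could not be tested with 1 library each, but their intervals overlapped only between −0.33 and −0.30.

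At the Itm2a stage Ccr9 was higher in KO in every coreceptor class, with intervals above 0. Ccr9 in Cd4-only cells was at 592 CPM in WT and 1108 CPM in KO (0.90, 0.73 to 1.08), in Cd8-only cells at 830 and 1251 CPM (0.59, 0.42 to 0.76) and in cells with both at 1282 and 1643 CPM (0.36, 0.24 to 0.48). Ccr7 was lower in KO in all 4 classes, with ratios from −0.49 to −1.22, and the interval of the Cd8-only class alone reached 0 (−1.06 to 0.01). In WT, Cd4-only cells had more Ccr7 than Cd8-only cells (229 against 157 CPM) and less Cxcr4 (5 UMIs in 130 cells against 31 in 139 cells, a ratio of −2.44, −4.27 to −1.18). Ccr4 in Cd4-only cells was at 27.4 CPM in WT and 89.6 CPM in KO (1.70, 0.96 to 2.49), in Cd8-only cells at 27.0 and 64.8 CPM (1.27, 0.38 to 2.14), and in cells with both at 56.8 and 81.0 CPM, where the interval held 0 (0.51, −0.06 to 1.09). A cell without a UMI of a coreceptor may still express it, so these classes are only sorts by counts.

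**Figure D4:**
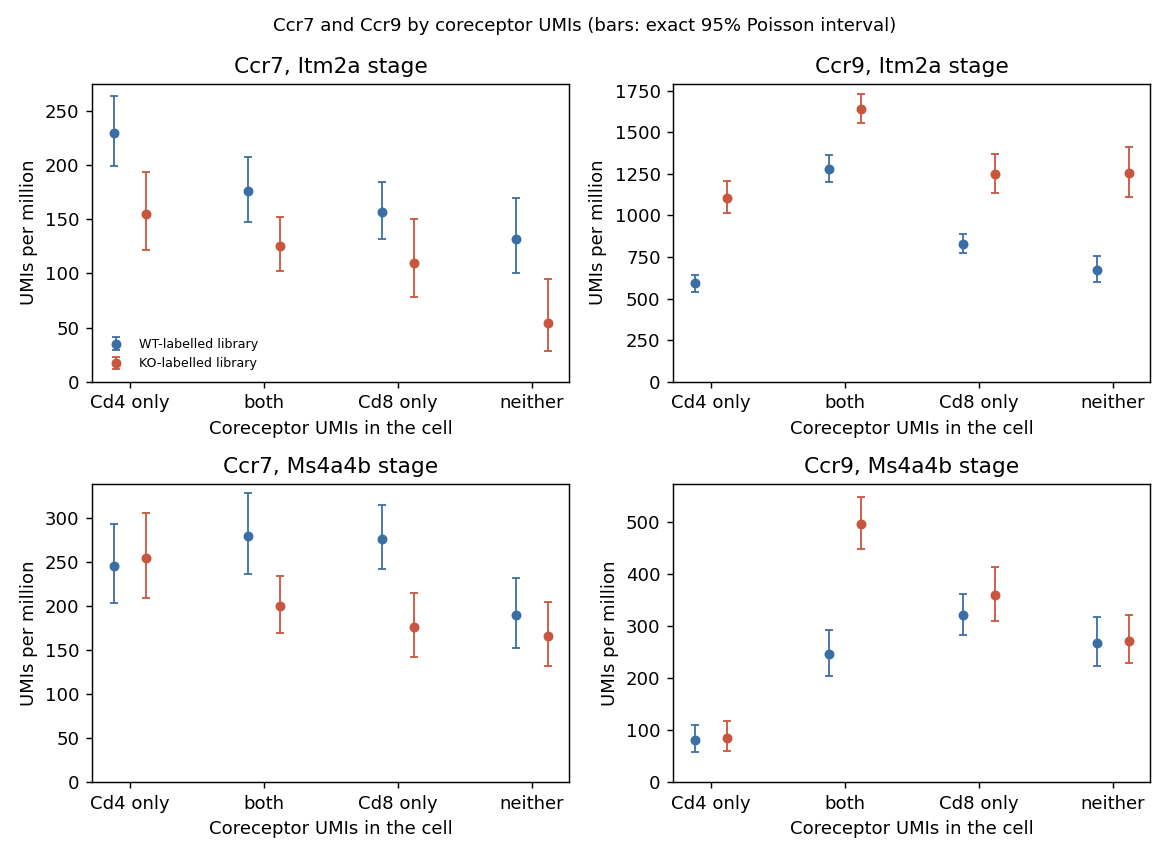
Ccr7 (left) and Ccr9 (right) in CPM on linear axes at the Itm2a (top) and Ms4a4b (bottom) stages, by the coreceptor UMIs of the cell, for the WT-labelled (blue) and KO-labelled (red) library, with exact 95% Poisson intervals. At the Ms4a4b stage Ccr9 is lowest in Cd4-only cells of both libraries, and the libraries stand apart in the cells with both coreceptors.

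Part of the Ccr9 of mature SP cells sat in few cells. At the Ms4a4b stage 13 WT cells with 10 or more Ccr9 UMIs carried 38.7% of all its UMIs there, and 23 KO cells carried 51.5%, while 99 cells of each library had 1 to 3 UMIs. Of the 13 WT and 23 KO cells with 10 or more, 6 and 11 also had a UMI of the gamma-delta genes Trdc, Trgc1 or Trgc2. The share of all cells of the stage with a UMI of these genes was not taken. Whether the cells with most Ccr9 had them more often was thus not tested. The 4 gamma-delta markers (Trdc, Trgc1, Trgc2 and Sox13) were all detected at this stage, summing to 163 CPM in WT and 337 CPM in KO, and the 3 NKT markers (Zbtb16, Il2rb and Nkg7) summed to 432 and 295 CPM. Cells with a UMI of any of them made up 45.5% of WT and 26.3% of KO cells. With those cells left out, which was done after the data were seen, Ccr9 was at 135 CPM in WT and 240 CPM in KO, a ratio of 0.83 and now called, and Ccr7 was at 309 and 247 CPM, a ratio of −0.32. Ccr4 then had 0 UMIs in 181 WT cells. That count allows a share of cells with a UMI of up to 1.66% by the 3-count rule (2.02% by the exact interval). KO had 14 UMIs in 292 cells, or 9.40 CPM (5.14 to 15.8). This was 3.37-fold the WT level with WT put at 3 UMIs over the group. That ratio leaves out the counting error of KO. At the Itm2a stage the same step gave −0.70 for Ccr7, 0.49 for Ccr9 and 1.04 for Ccr4.

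Within single cells most pairs of receptors were found together about as often as the product of their shares. At the Itm2a stage Ccr7 and Ccr9 were both found in 204 of 479 WT cells (42.6%, 38.1% to 47.2%), where the product was 44.1%, and in 97 of 316 KO cells (30.7%, 25.7% to 36.1%), where it was 31.4%. At the Ms4a4b stage of KO, Ccr9 was together with Cxcr4 in 36 of 396 cells (9.09%, 6.45% to 12.4%, product 4.91%) and with Ccr4 in 18 cells (4.55%, 2.72% to 7.09%, product 2.20%). The WT values for these pairs were 4.22% (product 3.76%) and 1.20% (product 1.04%). Without the 5% of cells of each library with most UMIs, which stand in for doublets, the KO values were 8.67% and 4.08%. That step left 392 of the 396 KO cells of this stage, so it cannot show the part of doublets of ordinary depth.

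The other chemokine receptors were scarce. Of 19 in the list 13 were measured, 7 had at least 20 UMIs at the Ms4a4b stage, 2 of these were called higher and 2 lower (27.0% and 7.03% of all genes), and their median ratio was −0.21 beside 0.24 for all genes. Cxcr6, the receptor for CXCL16 on NKT and effector cells, was at 33.1 CPM in WT and 19.9 CPM in KO (−0.73, −1.30 to −0.19). Ccr10 had 23 and 6 UMIs (−1.82, −3.49 to −0.56). Ccr2 and Cxcr3, which mark memory-like and NKT cells, were at 19.3 and 18.1 CPM and at 16.3 and 14.1 CPM. At the Rag1 and Cd5 stages Cxcr6 was instead higher in KO, with 3 UMIs in WT and 34 in KO and with 1 and 20. Ccr8 was at 4.59 and 4.25 CPM at the Itm2a stage.

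Of 17 chemokine ligands 13 were measured, and 3 of those for CCR4 and CCR7 lay mostly in cluster 15. Ccl22 and Ccl17, the ligands of CCR4, had 87 of 90 and 16 of 20 UMIs in cluster 15, and Ccl21a, a ligand of CCR7, had 31 of 33 there. Ccl25, the ligand of CCR9, had 1337 UMIs spread over the clusters, at 24.8 CPM in WT and 24.9 CPM in KO at the Rag1 stage, and of the epithelial markers Krt8 reached at most 16.8 CPM, in cluster 15. Ligands of other receptors were found in SP cells themselves. Xcl1, which attracts cross-presenting dendritic cells, was at 27.1 CPM in WT and 78.1 CPM in KO at the Ms4a4b stage (1.52, 1.11 to 1.97), Ccl5 at 214 and 337 CPM (0.66, 0.49 to 0.82) and Ccl4 at 2.15 and 9.26 CPM (2.01, 0.66 to 3.87). Of 4 ligands with at least 20 UMIs at this stage 3 were called higher and 0 lower (27.0% and 7.03% of all genes). Cxcl10 had 37 of its 70 UMIs in cluster 16.

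The genes that carry the signal below these receptors ranged widely in level. Of 33 measured in a list of 34, 30 had at least 20 UMIs at the Ms4a4b stage, 12 were called higher and 4 lower (27.0% and 7.03% of all genes), and the median ratio was 0.42 beside 0.24 for all genes. Gnai2, the inhibitory G protein subunit that chemokine receptors use, was at 651 CPM in WT and 832 CPM in KO (0.35, 0.26 to 0.45). The G protein subunit Gng5 was at 539 and 617 CPM. Cytip, which regulates integrin adhesion, was at 382 and 597 CPM (0.64, 0.52 to 0.77). Rgs10, which ends G protein signals, was at 791 and 331 CPM (−1.26, −1.38 to −1.13), and it was lower in KO at the earlier 3 stages as well, by ratios from −0.28 to −0.43. At the Itm2a stage 4 genes of this list were called higher and 3 lower of 31 (15.8% and 6.68% of all genes), with a median of 0.27 beside 0.16.

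Of 18 egress and homing genes, all measured, 8 were called higher and 1 lower at the Ms4a4b stage (27.0% and 7.03% of all genes), with a median of 0.47 beside 0.24. S1pr1, which takes mature cells out of the thymus, was at 261 CPM in WT and 643 CPM in KO (1.30, 1.16 to 1.44), and Klf2, the factor known to drive S1pr1, was at 679 and 1626 CPM (1.26, 1.17 to 1.34). Ccr7, with its ratio of −0.36, thus stood apart in direction from these mature markers within the same cells. At the Itm2a stage S1pr1 was lower in KO (58 and 21 UMIs, −0.75, −1.56 to −0.03). However, within the Itm2a-lower part, which held 58 and 20 of these UMIs, the S1pr1 ratio was −0.15 (−0.99 to 0.58). Klf2 was higher in KO over the whole stage (0.70, 0.51 to 0.88) and within that part (1.02, 0.82 to 1.22). Klf2 was already higher in KO at the Rag1 stage (8.47 against 29.3 CPM) and at the Cd5 stage (9.95 against 65.2 CPM) while Ccr7 was at 11.5 CPM or less in both libraries at these stages. Il7r, the interleukin-7 receptor, was lower in KO at both SP stages (−0.41 and −0.28). Coro1a, an actin regulator needed for egress, was at 1576 and 1923 CPM at the Ms4a4b stage and Selplg, the P-selectin ligand, at 337 and 468 CPM.

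Finally, the genes whose levels over clusters were most like each receptor were listed, by Pearson's r of log2(CPM + 10) over the 18 clusters with at least 50 cells, both libraries summed. These are descriptions across clusters that share libraries and were made from the same genes. For Ccr7 they were Tnfrsf4 (0.96), which encodes the costimulatory receptor OX40, Gimap4 (0.93), Gpr18 (0.93), Klf2 (0.92) and Cd7 (0.91). For Ccr9 they were Tox4 (0.97), Gm37376, Lpar6, a lysophosphatidic acid receptor (0.96 each), Kmt5b and Osbp (0.95 each). For Ccr4 they were Egr2 (0.98), a factor induced by T cell receptor signals, 4930417O13Rik (0.97), Itih5 (0.97), Nab2 (0.97), a corepressor of Egr factors, and Lef1os1 (0.95). For Cxcr4 they were Plxdc2 (0.92), Cbl (0.89), a ubiquitin ligase that dampens receptor signals, Cbfa2t2 (0.89), Slamf6 (0.89) and Atp13a3 (0.88). In WT alone the Cxcr4 values lay between 0.60 and 0.85, and in KO alone that of Osbp for Ccr9 was 0.73. Among the receptors themselves r was 0.55 for Ccr9 and Cxcr4, 0.56 for Ccr9 and Ccr4, and −0.51 for Ccr7 and Cxcr4.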

How the data were processed

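Whole-thymus cells of 2 libraries (1 WT, 1 KO, each a pool of 5 mice) were measured by 10x 3′ single-cell RNA-seq. The authors made the deposited UMI counts with Cell Ranger 3.0.2 and STAR on mm10 and filtered and clustered the cells in Seurat; the annotation is not given in the sources used here. The deposited mitochondrial percent was 0 in every cell and was not used. Here all 13683 cells and the deposited clusters at resolution 1.5 were used, and no doublet caller was run. A stage was the clusters with at least 67% of the highest level of its marker. UMIs were summed per stage and library (python 3.11.15, numpy 2.4.6, scipy 1.17.1, pandas 2.3.3), with exact Poisson, Clopper-Pearson and conditional binomial intervals at 95%. With 1 library per condition no test was possible. Alternatives were TMM (edgeR 4.0.16) and DESeq2 1.42.0 factors, totals without 308 ribosomal protein and mitochondrial genes, thinning, other resolutions and left-out cells. For each list the most abundant genes (up to 5) were named, and for likeness the 5 with highest r. The members and lists were chosen with earlier results of these data known. The scripts were tested on simulated data.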

Additional observations from a re-analysis of the deposited data

How the results depend on the processing

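No paired analysis was possible because each condition has 1 library. Values are KO over WT log2 ratios, and the cause of each move was not tested. Cells thinned to 1000 UMIs gave −0.45, −1.59 and −0.92 for Ccr7 at the Rag1, Cd5 and Itm2a stages, −0.58 and −0.26 for Cxcr4 at the Itm2a and Ms4a4b stages, 0.59 for Ccr4 at the Ms4a4b stage and 0.55 for Ccr9 at the Itm2a stage. Clusters at resolution 1.8 or 2 gave −0.14 for Ccr7, 0.069 for Ccr9 and 0.71 for Ccr4 at the Itm2a stage, and resolution 1.8 gave 0.045 for Ccr9 at the Cd5 stage. TMM and DESeq2 factors gave −0.62 and −0.58 for Ccr7 at the Ms4a4b stage, and for Ccr9 0.15 and 0.15 at the Rag1 stage, 0.53 and 0.53 at the Itm2a stage and 0.21 and 0.24 at the Ms4a4b stage. Ccr9 at the Itm2a and Ms4a4b stages was 0.58 and 0.29 on totals without ribosomal protein and mitochondrial genes, and 0.54 and 0.16 as a mean over cells. Leaving out cells with a gamma-delta or NKT marker, chosen after seeing the data, gave 0.49 and 0.83 for Ccr9 at these stages, and a fitted 4.39 for Ccr4 at the Ms4a4b stage that is no bound, since WT was at 0. With no minimum of UMIs the genes called higher and lower were 3661 and 2018 at the Rag1 stage, 4001 and 2750 at the Cd5 stage, 4570 and 3175 at the Itm2a stage and 5845 and 2950 at the Ms4a4b stage, against 966 and 400, 924 and 481, 1548 and 654, and 2593 and 674. Without ribosomal protein and mitochondrial genes 985 were higher at the Itm2a stage, and 1533 were higher and 1080 lower at the Ms4a4b stage. TMM factors gave 796 and 1084, and 1181 and 1369 at these stages, and DESeq2 factors 797 and 1082, and 1326 and 1240.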
